A study of Mus musculus with 4 samples.

Results

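Lrrc15 and Cpn2 are 2 of the 24906 genes by symbol in these mouse heart libraries, and they lie next to each other on chromosome 16. They were chosen as the rows whose RefSeq transcript maps to either symbol, after earlier results of the same libraries had shown how Lrrc15 differed between them, so their levels are given as a description and with no test. Each symbol matched 1 transcript (NM_028973 for Lrrc15 and NM_027904 for Cpn2). RNA was measured by strand-specific poly(A) sequencing in 4 libraries, each made from 3 whole hearts combined at 12 weeks of age, with 1 library per group. The library called tt is from hearts of the dilated cardiomyopathy model, cMyBP-C(t/t), and the library called control came from the control mice of that model; both carry the strain label FvB/N. The library called dC10mut came from cMyBP-CΔC10mut mice, the model of hypertrophic cardiomyopathy, whose transgene is a MYBPC3 variant of 25 bp, and the library called NTG came from nontransgenic mice; both carry the strain label C57BL/6. MYBPC3 encodes cardiac myosin binding protein C, which binds myosin in the thick filaments of heart muscle. The promoter driving the transgene and the nature of the t allele are not given in the sources used here.

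Lrrc15 encodes a leucine-rich repeat protein of the cell membrane that is known from activated fibroblasts, above all those of tumours, where transforming growth factor beta induces it. Cpn2 encodes the regulatory, non-catalytic subunit of carboxypeptidase N, a plasma enzyme made mainly by the liver. Carboxypeptidase N trims the terminal arginine or lysine from complement anaphylatoxins and kinins, and its catalytic subunit is the product of Cpn1. The Cpn2 subunit also carries leucine-rich repeats.

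Both genes lie on the minus strand, with Lrrc15 upstream of Cpn2 in the direction of transcription. Lrrc15 spans 30269302 to 30283256 and Cpn2 spans 30256378 to 30267499 on chromosome 16 (GRCm38, GENCODE M21), with a gap of 1802 bases between them. Each has 2 exons, and in each the whole coding sequence lies within the second exon, which is 5221 bases long in Lrrc15 and 4507 bases in Cpn2. Because the 2 genes had the same order of libraries, the 250 bases before each start are shown, from RefSeq (GRCm38.p6), 5′ to 3′ on the minus strand, with motif matches in capitals.
Lrrc15, chr16:30283255-30283504: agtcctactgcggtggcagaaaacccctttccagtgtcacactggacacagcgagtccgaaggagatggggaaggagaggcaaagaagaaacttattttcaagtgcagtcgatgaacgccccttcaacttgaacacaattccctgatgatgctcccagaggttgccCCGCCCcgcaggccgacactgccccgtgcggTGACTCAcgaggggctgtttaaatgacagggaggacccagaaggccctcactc
Cpn2, chr16:30267533-30267782: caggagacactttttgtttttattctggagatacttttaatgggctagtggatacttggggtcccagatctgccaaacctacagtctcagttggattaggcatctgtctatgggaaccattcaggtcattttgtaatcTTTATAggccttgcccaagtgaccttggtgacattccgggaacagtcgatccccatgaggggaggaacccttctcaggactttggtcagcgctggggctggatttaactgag

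The capitals in the Lrrc15 window mark a GC box (GGGCGG, here on the other strand) at 84 to 79 bases before the start and an AP-1 match (TGANTCA) at 53 to 47 bases before it. The capitals in the Cpn2 window mark a TATA box match (TATAAA, on the other strand) at 112 to 107 bases before the start. Distances are from the RefSeq start of each gene, which differs from the GENCODE position given above. Matches were sought on both strands, and of 27025 windows of the same length 32.9% held the GC box, 6.87% the AP-1 letters and 13.0% the TATA letters. The SMAD letters CAGACA and, for GATA factors, the letters AGATAA were in neither window, against 17.1% and 10.3% of all windows, and no motif was found in both. The Lrrc15 window had a GC content of 56.4% and the Cpn2 window 47.6%, with a median of 52.0% over all windows.

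Lrrc15 was the more abundant of the pair in every library and one of the most abundant rows of the whole table. It held 1705 counts in tt and 547 in control, and 922 counts in dC10mut and 980 in NTG. Scaled for library size and composition (TMM scaling to CPM, which are counts relative to a common library total), these were 8847 in tt (95% Poisson interval 8432 to 9278), 3006 in control (2759 to 3269), 4925 in dC10mut (4612 to 5254) and 6114 in NTG (5738 to 6510). The tt library stood highest, NTG and dC10mut followed, and control stood lowest; no 2 of the 4 counting intervals overlapped. By count, Lrrc15 ranked 10 of the 6980 genes with a count in tt, 48 of 6982 in control, 23 of 6808 in dC10mut and 17 of 6718 in NTG. It took 0.915% of all counts in tt, 0.310% in control, 0.492% in dC10mut and 0.575% in NTG.

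Cpn2 had the same order of libraries at a much lower level. It held 85 counts in tt and 24 in control, and 50 counts in dC10mut and 56 in NTG. The scaled CPM were 441 in tt (352 to 545), 132 in control (84.5 to 196), 267 in dC10mut (198 to 352) and 349 in NTG (264 to 454). Control again stood below the other libraries, but the intervals of tt and NTG overlapped, as did those of NTG and dC10mut. Cpn2 ranked 341 by count in tt, 883 in control, 511 in dC10mut and 439 in NTG. All intervals cover counting error only: each group has 1 library, and PCR can copy 1 molecule into several reads.

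**Figure D1:**
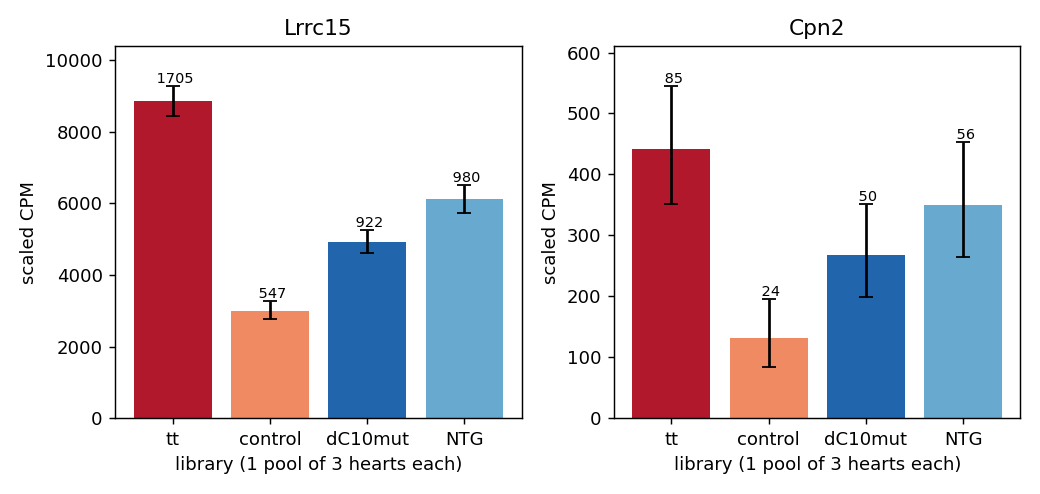
Scaled CPM (TMM-scaled) of Lrrc15 and Cpn2 in the 4 libraries, 1 pool of 3 hearts each; bars start at 0, error bars are 95% Poisson intervals for counting error, and the number above each bar is the raw count. In both panels tt is highest and control lowest, and the vertical scale of Cpn2 is much smaller.

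The question of the dilated model is what sets its hearts apart from those of its control mice, and both members were higher in tt. Lrrc15 was 2.94-fold higher (1705 counts in tt, 547 in control), a log2 ratio of 1.56 with a 95% counting interval of 1.42 to 1.70. Cpn2 was 3.30-fold higher (85 counts in tt, 24 in control), a log2 ratio of 1.72 (1.07 to 2.46). The interval of Cpn2 holds that of Lrrc15, and both intervals lie above 2-fold. Of the 1863 genes with at least 20 counts summed over this pair of libraries, 8.48% were higher in tt by 2-fold or more, 5.31% were lower by as much and the median log2 ratio was -0.03; as the members were chosen on these values, nothing is read from their place in it. Cpn2 ranked 41 and Lrrc15 ranked 54 from the top of these 1863 log2 ratios. Among the 298 genes with at least 200 counts over the pair, a minimum chosen after seeing the data, 15 were higher in tt by 2-fold or more. Lrrc15 ranked 4 there, and nothing is read from that place either.

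The question of the hypertrophic model is what the transgene changes relative to nontransgenic hearts, and neither member reached 2-fold. Lrrc15 held 922 counts in dC10mut and 980 in NTG, a log2 ratio of -0.31 (-0.44 to -0.18). Cpn2 held 50 counts in dC10mut and 56 in NTG, a log2 ratio of -0.38 (-0.97 to 0.19), an interval that includes equality. In this pair 6.68% of 1766 genes were higher in dC10mut by 2-fold or more, and 8.04% were lower by as much. Among them 66.3% had a higher log2 ratio than Lrrc15 and 71.1% a higher one than Cpn2.

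**Figure D2:**
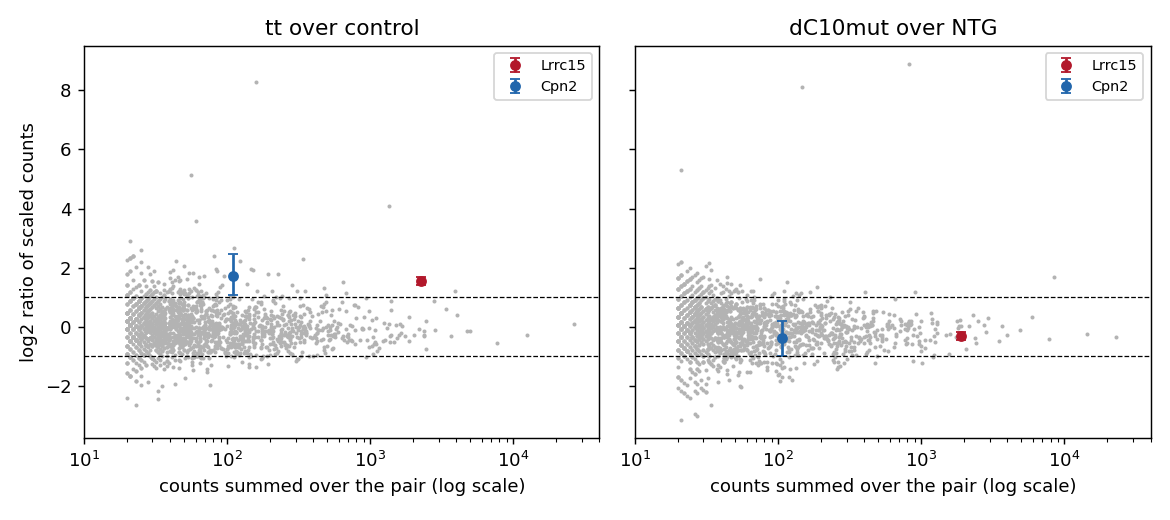
Log2 ratio of TMM-scaled counts against the counts summed over the pair (log axis) for genes with at least 20 such counts, tt over control on the left and dC10mut over NTG on the right. Lrrc15 (red) and Cpn2 (blue) carry 95% counting intervals and dashed lines mark 2-fold; both lie above the upper line on the left (1.56 and 1.72) and between the lines on the right (-0.31 and -0.38).

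The control libraries of the models were themselves apart. Lrrc15 was 2.03-fold lower in control, with 547 counts, than in NTG, with 980 (log2 ratio -1.02, -1.18 to -0.87). Scaling by library totals, which moved the median log2 ratio of all genes in this pair by 0.13, gave -0.89 and so ended the 2-fold call for Lrrc15. Cpn2 was 2.61-fold lower in control, with 24 counts, than in NTG, with 56 (log2 ratio -1.39, -2.16 to -0.69). At least 2-fold lower in control were 5.14% of the 1713 genes compared. Control and NTG differ in strain label and in the model they belong to, and these cannot be told apart. The control library is the denominator of the tt comparison, so its low level enters both sets of ratios for each member.

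The levels of Lrrc15 and Cpn2 kept nearly the same proportion in all 4 libraries. Of the counts that fell on either gene, Cpn2 took 4.75% in tt (95% Clopper-Pearson interval 3.81 to 5.84, 1790 counts) and 4.20% in control (2.71 to 6.19, 571 counts). It took 5.14% in dC10mut (3.84 to 6.73, 972 counts) and 5.41% in NTG (4.11 to 6.96, 1036 counts). Each of the 4 intervals holds all 4 shares, while the summed counts behind them ranged from 571 to 1790. Per base of exon (5310 bases in Lrrc15 and 4550 in Cpn2), the count of Lrrc15 was 17.2 times that of Cpn2 in tt, 19.5 times in control, 15.8 times in dC10mut and 15.0 times in NTG. On the scale of scaled CPM per kilobase of exon, Lrrc15 stood at 1666 in tt, 566 in control, 928 in dC10mut and 1151 in NTG, and Cpn2 at 96.9, 29.0, 58.7 and 76.8 in the same libraries. No 31-base stretch of the Lrrc15 transcript occurs in the Cpn2 transcript on either strand, and none of its 5280 distinct stretches occurs in a transcript of any other GENCODE gene. Of the 4520 stretches of Cpn2, 2 occur in other transcripts in the same direction and 6 in the opposite one.

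The genes around Lrrc15 and Cpn2 were at or near 0. Within 500 kb of Lrrc15, GENCODE places 21 genes, of which 11 are in the files. The other 9 of those held 50 counts in all over the 4 libraries, against 4154 for Lrrc15 and 215 for Cpn2. Gp5, which encodes platelet glycoprotein V and is the next gene upstream of Lrrc15, held 0 counts in all 4 libraries, as did Atp13a3, which encodes a P-type ATPase that transports polyamines. Tmem44, which encodes a transmembrane protein, was also at 0. The 4 with a count were Hes1, a target of Notch signalling (5 counts in tt, 5 in control, 3 in dC10mut and 3 in NTG), Lsg1, a factor of ribosome assembly (5, 3, 1 and 7 in the same order), Fam43a (5, 0, 4 and 2) and the noncoding 4632428C04Rik (3, 4, 0 and 0). Too few reads fell on these neighbours to compare libraries. A count of 0 in a library allows up to 3 counts, which is 16.1 CPM of the library total in tt, 17.0 in control, 16.0 in dC10mut and 17.6 in NTG.

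**Figure D3:**
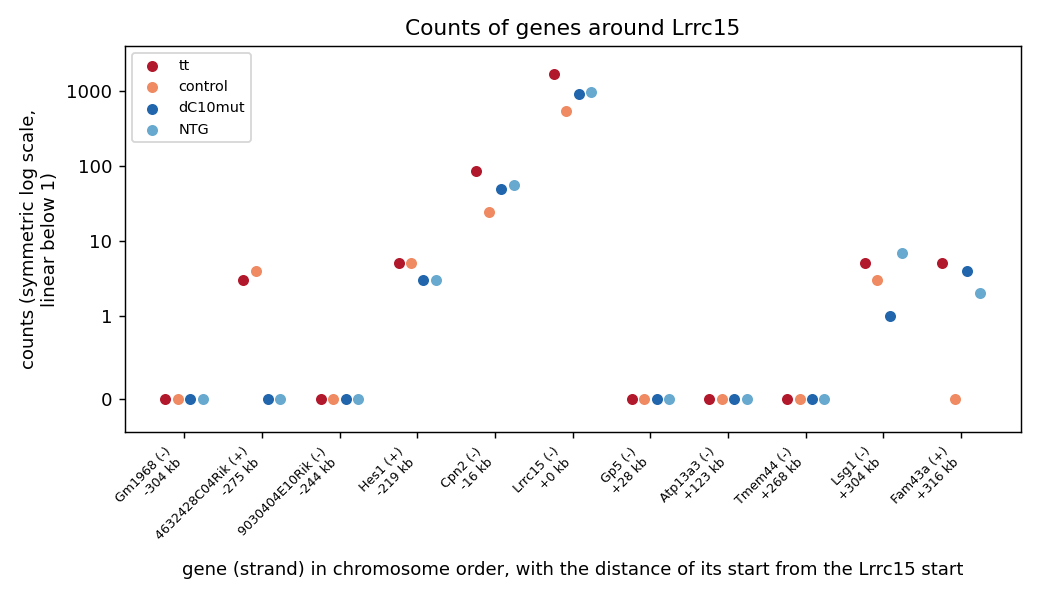
Raw counts (symmetric log axis, linear below 1) of the 11 genes in the files within 500 kb of Lrrc15, in chromosome order, with strand and the distance of each gene start from the Lrrc15 start; points are the 4 libraries. Lrrc15 holds 547 to 1705 counts and Cpn2 24 to 85, while no other gene exceeds 7.

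Which strand the counted reads came from bears on what these rows measure. The kit used records strand, but the strand setting used in counting is not given in the sources used here. Of the 20 most abundant genes, 14 share exonic bases with a gene transcribed from the opposite strand, against 21.7% of all genes placed on the annotation. That base includes genes without a count. Of the 1863 genes with at least 20 counts over tt and control, 901 were placed and had no such overlap. By counts on placed transcripts, 67.5% in tt, 68.6% in control, 68.1% in dC10mut and 70.9% in NTG fell on transcripts with such an overlap. Of the placed transcripts themselves, 22.6% had one. The most abundant rows weigh most in the shares of counts. The leading 2 of the 20, chosen after their values were seen, each face a gene of heart energy metabolism with far fewer counts over the 4 libraries. Map3k15 held 49458 and Pdha1, of the pyruvate dehydrogenase complex, 687. A930016O22Rik held 26866 and Ckm, the muscle creatine kinase, 1373. Lrrc15 is the last of the 20 and is among the 6 with no such partner. No GENCODE gene on the plus strand overlaps Lrrc15 or Cpn2, and no RefSeq gene other than these 2 overlaps their span. The nearest plus-strand genes are the pseudogene Gm49645, which ends 835 bases short of Cpn2, and the pseudogene Gm49679, 169331 bases beyond Lrrc15. Reads from Lrrc15 and Cpn2 RNA and reads from an unannotated transcript on the other strand therefore cannot be told apart in these counts.

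Genes related to carboxypeptidase N or to its substrates were mostly at low counts. Cpn1, the catalytic subunit, held 0 counts in all 4 libraries. Of 18 listed genes of related carboxypeptidases, complement, kininogens and their receptors in the files, 11 were at 0 in every library. With at least 20 counts over the pair, 2 could be compared between tt and control, Cpd and Cpe. Of these, 0 were 2-fold apart, where 8.48% of all genes were higher and 5.31% lower. These 2 genes are too few to read this count against those shares. Their median log2 ratio was 0.16, beside -0.03 over all genes, and over the 6 genes with at least 1 count in the pair it was -1.26. Between dC10mut and NTG, 2 could be compared, here Cpe and C3, so the 2 medians do not cover the same genes. Of these, 0 were 2-fold apart, where 6.68% of all genes were higher and 8.04% lower. The median was 0.25, again beside -0.03. Cpe, a carboxypeptidase that matures peptide hormones, held 36 counts in tt and 42 in control, and 47 in dC10mut and 36 in NTG. Cpd, a carboxypeptidase of the secretory pathway, held 15 counts in tt and 9 in control, and 6 in dC10mut and 4 in NTG. C3, the precursor of the anaphylatoxin C3a, held 6 counts in tt and 11 in control, and 15 in dC10mut and 10 in NTG.

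Liver markers were examined because the liver is the main source of Cpn2. Of 10 hepatocyte markers, 9 were at 0 in every library, Alb, Apoa1, Ttr and Fgb among them. The exception, Apoa2, an apolipoprotein, held 140 counts in tt and 70 in control, and 203 in dC10mut and 113 in NTG. It was higher in tt than in control (log2 ratio 0.91, 0.49 to 1.35) and higher in dC10mut than in NTG (log2 ratio 0.62, 0.28 to 0.97). Whether liver RNA has a part in the level of Cpn2 was not tested.

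Few other leucine-rich repeat genes held enough counts to compare. Of 25 such genes, 10 were at 0 in every library and 5 had at least 20 counts in each pair. Between tt and control 0 were at least 2-fold higher and 1 lower, where 8.48% of all genes were higher and 5.31% lower, and the median log2 ratio was -0.33 beside -0.03 over all genes. Between dC10mut and NTG 1 was higher and 0 lower, where 6.68% of all genes were higher and 8.04% lower, and the median was 0.06. With 5 genes, these counts are too small to be told from those shares. The 1 gene past 2-fold was the same in both pairs: Lrg1, a secreted glycoprotein, held 10 counts in tt and 20 in control (log2 ratio -1.05, -2.34 to 0.08), and 47 in dC10mut and 17 in NTG (1.22, 0.42 to 2.14). Gp1ba, a subunit of the platelet receptor to which the Gp5 product belongs, held 252 counts in tt and 237 in control, and 163 in dC10mut and 254 in NTG. Ogn, a small proteoglycan of the matrix, held 27 counts in tt and 33 in control, and 27 in dC10mut and 19 in NTG.

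Genes of transforming growth factor beta signalling and of activated fibroblasts, the setting in which Lrrc15 is best known, were at low counts. Of 26 genes 9 were at 0 in every library and 3 could be compared in each pair. Between tt and control 0 of the 3 were 2-fold apart, where 8.48% of all genes were higher and 5.31% lower, too few genes to read against those shares. Their log2 ratios went both ways, with 0.33 for Ccn2, -0.57 for Acta2 and -0.98 for Col3a1. Between dC10mut and NTG 1 was at least 2-fold higher, where 6.68% of all genes were higher and 8.04% lower. Again, 3 genes are too few to read against those shares. The 1 gene was Acta2, the smooth muscle actin of myofibroblasts, with 24 counts in dC10mut and 6 in NTG. The median of the 3 was 0.56, beside -0.03 over all genes. Over the 14 list genes with at least 1 count in the pair it was -0.19. Col3a1, a fibrillar collagen, held 18 counts in tt and 34 in control, and 18 in dC10mut and 23 in NTG. Ccn2, a matrix protein induced by this pathway, held 32 counts in tt and 24 in control, and 33 in dC10mut and 19 in NTG. The 7 markers of activated fibroblasts summed to 3 counts in tt and 10 in control, and to 4 in dC10mut and 4 in NTG, with Postn and Cthrc1 at 0 in all 4. Postn is listed by 5 transcripts and Cthrc1 by 3, and a 0 in these files does not show that a gene was silent. The 10 general fibroblast markers summed to 60 counts in tt and 91 in control, and to 80 in dC10mut and 67 in NTG. Dpt, a matrix protein, held 18 of these in tt and 19 in control, and 38 in dC10mut and 14 in NTG. Without it the other 9 summed to 42 in tt and 72 in control, and to 42 in dC10mut and 53 in NTG. Markers of other cell types also differed between tt and control, where Lrrc15 and Cpn2 were higher in tt. The 7 endothelial markers, of which 2 were at 0 throughout, summed to 137 counts in tt and 264 in control, and to 236 in dC10mut and 228 in NTG. As scaled CPM, these sums were 711 in tt, 1451 in control, 1261 in dC10mut and 1423 in NTG, so dC10mut was below NTG. Most of the counts were from Fabp4, with 102 in tt, 203 in control, 184 in dC10mut and 154 in NTG. The 7 macrophage markers summed to 18 counts in tt and 46 in control, and to 48 in dC10mut and 18 in NTG. Lyz2, or lysozyme, held 5 of these in tt and 28 in control, and 28 in dC10mut and 6 in NTG, and the other 6 summed to 13 in tt and 18 in control, and to 20 in dC10mut and 12 in NTG. The 7 smooth muscle and pericyte markers summed to 360 in tt and 449 in control, and to 421 in dC10mut and 303 in NTG. Most of these counts were from Des, which is not particular to these cells. It held 231 in tt and 292 in control, and 249 in dC10mut and 204 in NTG. The part of these cell types in the levels of Lrrc15 and Cpn2 was not tested. In whole hearts, fewer cells of a type and less RNA per cell cannot be told apart. As the strand setting used in counting is not given, the strand limit stated for Lrrc15 and Cpn2 holds for these marker rows too.

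A 0 in these files does not show that a gene was silent. Of 10 cardiomyocyte markers, Myl2, Actc1, Tnni3 and Ryr2 were well counted (615 to 10934 counts over the 4 libraries), but Tnnt2 and Myl3 were at 0 and Myh6 held 1 count, although these are abundant in the heart. Tnnt2 is listed by 9 transcripts, Myl3 by 2 and Myh6 by 2, while Lrrc15, Cpn2, Gp5, Cpn1 and those 4 markers are listed by 1 each. Mybpc3 itself held 412 counts in tt and 266 in control, and 368 in dC10mut and 344 in NTG. Counts per transcript do not separate alleles and give no check of the genotypes. Tsix, opposite Xist, held 159 counts in tt and 0 in control, and 147 in dC10mut and 0 in NTG. Xist itself held fewer, with 14 in tt and 0 in control, and 8 in dC10mut and 0 in NTG. The strand limit holds for both rows, and each was at 0 in control and NTG. Sex and genotype of the pools therefore cannot be told apart within either model. The totals of the libraries were 186420 counts in tt, 176633 in control, 187365 in dC10mut and 170543 in NTG.

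Of 898 other genes with at least 100 counts over the 4 libraries, those whose profile was nearest to that of Lrrc15 were ranked by the root-mean-square difference of log2 scaled counts, each centred on its gene's mean over the 4 libraries. Cpn2 ranked 4, at a difference of 0.14, beside a median of 0.64 over all ranked genes. With Pearson's r as the measure it ranked 12. Ahead of it stood C130083M11Rik (0.07), Plet1, a placental surface protein (0.13), and Cog5, a subunit of a Golgi tethering complex (0.14). Behind it came Pcdhgb7, a protocadherin (0.15), Myom2, a protein of the sarcomere's M-band (0.16), 4931431C16Rik (0.16) and 1700094J05Rik (0.17). Of these 8 genes, 5 overlap exons of an opposite-strand gene, and Cpn2, C130083M11Rik and Myom2 do not. C130083M11Rik held 102 counts in tt and 35 in control, and 58 in dC10mut and 56 in NTG. Myom2, the muscle gene of the group, held 217 counts in tt and 88 in control, and 134 in dC10mut and 165 in NTG, which is the order of libraries seen in Lrrc15. Over 4 libraries a near match is a description of these pools and carries no test.

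**Figure D4:**
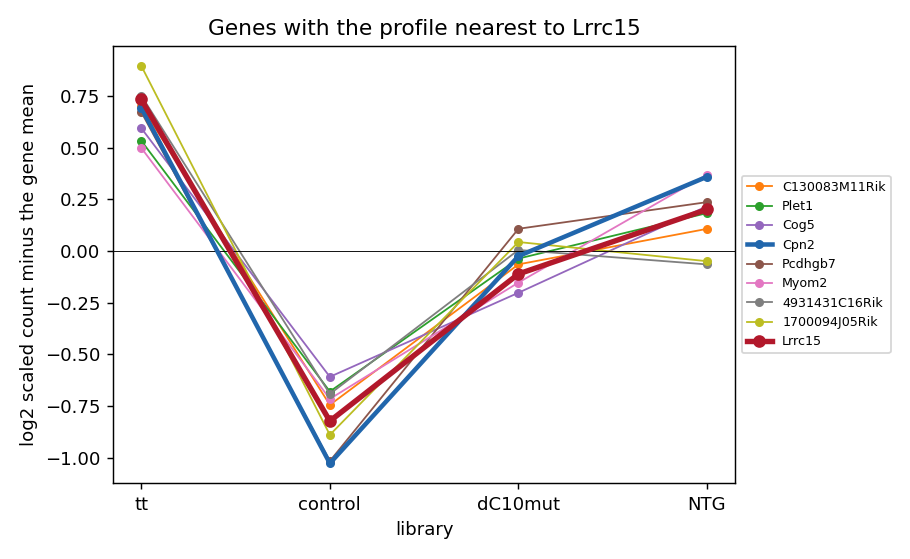
Log2 scaled count minus the gene's mean over the 4 libraries for Lrrc15 (thick red), Cpn2 (thick blue) and the 7 other genes nearest to Lrrc15; lines join the points of a gene and mark no order of libraries. Each gene is highest in tt and lowest in control.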

How the data were processed

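The deposited files hold raw read counts per RefSeq transcript, made by the authors with STAR and HTSeq on the mouse build mm10, per the submitters' processing notes; versions, counting mode and strand setting are not given in the sources used here. Of 41449 transcripts, 41351 matched a symbol (RefSeq table of GRCm38.p6, then GENCODE M21); counts were summed per symbol. Members and gene lists were chosen with earlier results of these data known. Counts were scaled with TMM factors (edgeR 4.0.16: 1.03 in tt, 1.03 in control, 0.999 in dC10mut, 0.940 in NTG). Log2 ratios used a prior count of 0.5 and exact conditional binomial (Clopper-Pearson) intervals at 95%, and 2-fold was the size counted, in genes with at least 20 counts over a pair. With 1 library per group there is no replicate check and no test. Named genes were the members, their neighbours within 500 kb, the 8 nearest profiles, up to 4 list members by count, and checks. Alternatives were library totals, DESeq2 1.42.0 size factors, a prior of 2, other filters and 1.5-fold. The ratio calculation was tested on simulated counts. Python 3.11.15 and R 4.3.3 were used.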

Additional observations from a re-analysis of the deposited data

Results flagged for a closer look

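The direction of both genes differed between the models. The log2 ratio of Lrrc15 was 1.56 for tt over control and -0.31 for dC10mut over NTG, a difference of 1.87 (95% counting interval 1.68 to 2.06). The log2 ratio of Cpn2 was 1.72 for tt over control and -0.38 for dC10mut over NTG, a difference of 2.11 (1.25 to 2.96). With 1 library per group these differences were not tested. The ratio of Cpn2 for dC10mut over NTG has an interval that includes equality. The low level of control enters the tt ratios of both genes. For tt over NTG, which differ in strain label and model, the log2 ratio of Lrrc15 was 0.53 (0.42 to 0.65). That of Cpn2 was 0.33 (-0.17 to 0.85), which includes equality. Sex and genotype of the pools cannot be told apart within either model.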

How the results depend on the processing

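All 32 values of the log2 ratios of Lrrc15 and Cpn2 and of their differences between the models, under 4 alternatives, lay within the counting interval of the main value. For tt over control, Lrrc15 ranged from 1.54 to 1.58 and Cpn2 from 1.66 to 1.74; for dC10mut over NTG, Lrrc15 ranged from -0.42 to -0.22 and Cpn2 from -0.50 to -0.30. TMM factors from genes without an opposite-strand exon moved the median log2 ratio of all genes for dC10mut over NTG by -0.11; relative to it Lrrc15 stood at -0.29. Counts of genes past 2-fold, higher and then lower, were 158 and 99 for tt over control, 118 and 142 for dC10mut over NTG, and 70 and 88 for control over NTG. Without a filter they were 1994 and 1837, 1957 and 1871, and 2010 and 1743; at 1.5-fold they were 377 and 329, 306 and 353, and 204 and 277. At 200 counts or more, chosen after seeing the data, they were 15 and 4, 5 and 13, and 2 and 6. Among genes without an opposite-strand exon they were 74 and 46, 84 and 50, and 47 and 31, fewer genes being compared in both cases. Library totals gave 106 and 55 for control over NTG. Without a filter, list members past 2-fold in either direction were counted for tt over control and then for dC10mut over NTG. They were 3 of 6 and 2 of 5 in the carboxypeptidase N list. The leucine-rich repeat list had 8 of 15 and 5 of 12, and the fibroblast list 7 of 14 and 7 of 14. Of all genes, 24.2% were then higher and 22.3% lower for tt over control, and 24.4% and 23.3% for dC10mut over NTG. With so few genes these counts cannot be told from those shares, and 1 count against 0 passes 2-fold. The list medians became -1.26 (carboxypeptidase N, tt over control), 0.17 (leucine-rich repeat, dC10mut over NTG) and -0.19 (fibroblast, dC10mut over NTG). Of the 8 nearest profiles, 3 were shared with Pearson's r, which put Cpn2 at rank 12, and 1 was shared at a minimum of 400 counts, which Cpn2 did not reach. The causes were not tested. No paired analysis was possible because each group has 1 library and the labels give no replicate numbers. Depth limits Cpn2, at 24 to 85 counts, more than Lrrc15.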
